A study of Mus musculus with 2 samples.

Results

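The genes described here are 7 that encode enzymes and a carrier of arginine and tryptophan metabolism with which myeloid cells can limit T cells: Arg1, Arg2, Nos2, Slc7a2, Ass1, Ido1 and Il4i1. They were chosen by name, and all 7 were found among the 31053 features of the count matrices. Their unique molecular identifiers (UMIs, each standing for 1 captured transcript) were followed through neutrophils, monocytes, macrophages and dendritic cells of mammary tumours in mice, which arose from the line PyMT-M or from the line PyMT-N. The lines are named after the polyoma middle T oncogene, and the labels do not say what M and N stand for. Cells of a line were placed in the mammary gland, and tumours were taken 4 weeks later, when they measured 0.7 to 1 cm across. CD45+ DAPI- cells, meaning living cells of blood origin, were sorted and read with a droplet method that counts the 5′ end of transcripts. The strain, sex, age and number of the mice and any treatment are not given in the sources used here, and no tumour-free tissue was among the samples analysed here.

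Arginine enters myeloid cells through cationic amino acid carriers such as the protein of Slc7a2. Arginases, encoded by Arg1 in the cytosol and Arg2 in mitochondria, split it into ornithine and urea. Inducible nitric oxide synthase, encoded by Nos2, turns it into nitric oxide and citrulline, and argininosuccinate synthase, encoded by Ass1, takes the first step by which citrulline is rebuilt into arginine. Ido1 encodes the enzyme that opens the kynurenine route of tryptophan breakdown, and Il4i1 encodes a secreted oxidase of phenylalanine and other aromatic amino acids, tryptophan among them. Loss of these amino acids, and the products made from them, are textbook routes by which myeloid cells restrain T cells in tumours.

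All 7 genes are protein-coding and were placed on build GRCm38 by the gene identifiers in the files. Arg1 (ENSMUSG00000019987) lies on chromosome 10 from 24915221 to 24927484 on the minus strand, and Arg2 (ENSMUSG00000021125) on chromosome 12 from 79130777 to 79156301 on the plus strand. Nos2 (ENSMUSG00000020826) lies on chromosome 11 from 78920787 to 78960254 on the plus strand. Slc7a2 (ENSMUSG00000031596) and Ido1 (ENSMUSG00000031551) both lie on chromosome 8, Slc7a2 from 40862396 to 40922308 on the plus strand and Ido1 from 24584136 to 24597009 on the minus strand. Ass1 (ENSMUSG00000076441) lies on chromosome 2 from 31470207 to 31520672 and Il4i1 (ENSMUSG00000074141) on chromosome 7 from 44816387 to 44840809, both on the plus strand. The span of Il4i1 overlaps Nup62 on the same strand and Atf5 and Tbc1d17 on the other, so its counts are uncertain where reads could be split or discarded. Arg2 overlaps Vti1b and the antisense gene Gm48780, and Slc7a2 the noncoding gene Gm26584, all on the opposite strand.

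There was 1 library per tumour line, so no difference between tumours has a replicate check, no test was possible, and the 95% intervals given here cover counting error alone. The PyMT-M library held 7476 barcodes with a median of 5069.5 UMIs, and PyMT-N 5020 with a median of 1955, and 60 barcode sequences occurred in both. After filters, the marker rule found 54 neutrophils in PyMT-M against 3300 in PyMT-N, 193 and 295 monocytes, 5021 and 640 macrophages, and 104 and 34 dendritic cells. Median UMIs per cell were alike between tumours within a class, at 1625 and 1692 in neutrophils, 5574 and 5443 in monocytes, 4897 and 4792 in macrophages and 6460 and 5727 in dendritic cells. Lymphoid cells, 899 and 208 with medians of 4781 and 3059.5, served as the background for genes of myeloid cells. Of the neutrophil list, all 9 markers were found in neutrophils of each tumour, at 562 and 990 UMIs per 10000. The macrophage list in those cells stood at 3.57 and 2.64 per 10000. The epithelial list stood at 2.04 per 10000 in the 54 PyMT-M neutrophils and 0.0283 in those of PyMT-N. In macrophages the macrophage list stood at 588 and 236 per 10000 and the monocyte list at 3.98 and 7.87. The part that RNA of other cells plays in the values below was not tested.

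Each gene had its own place among the classes. Nos2 and Arg2 were neutrophil genes, Arg1 was found at high counts in a few monocytes and macrophages, Slc7a2 was mainly in macrophages, Ass1 was spread over every class but neutrophils, Il4i1 was concentrated in mature dendritic cells, and Ido1 was nearly absent from both libraries. Levels are given as UMIs per 1000000 UMIs of the class (CPM), and are compared between classes or tumours for 1 gene at a time.

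**Figure D1:**
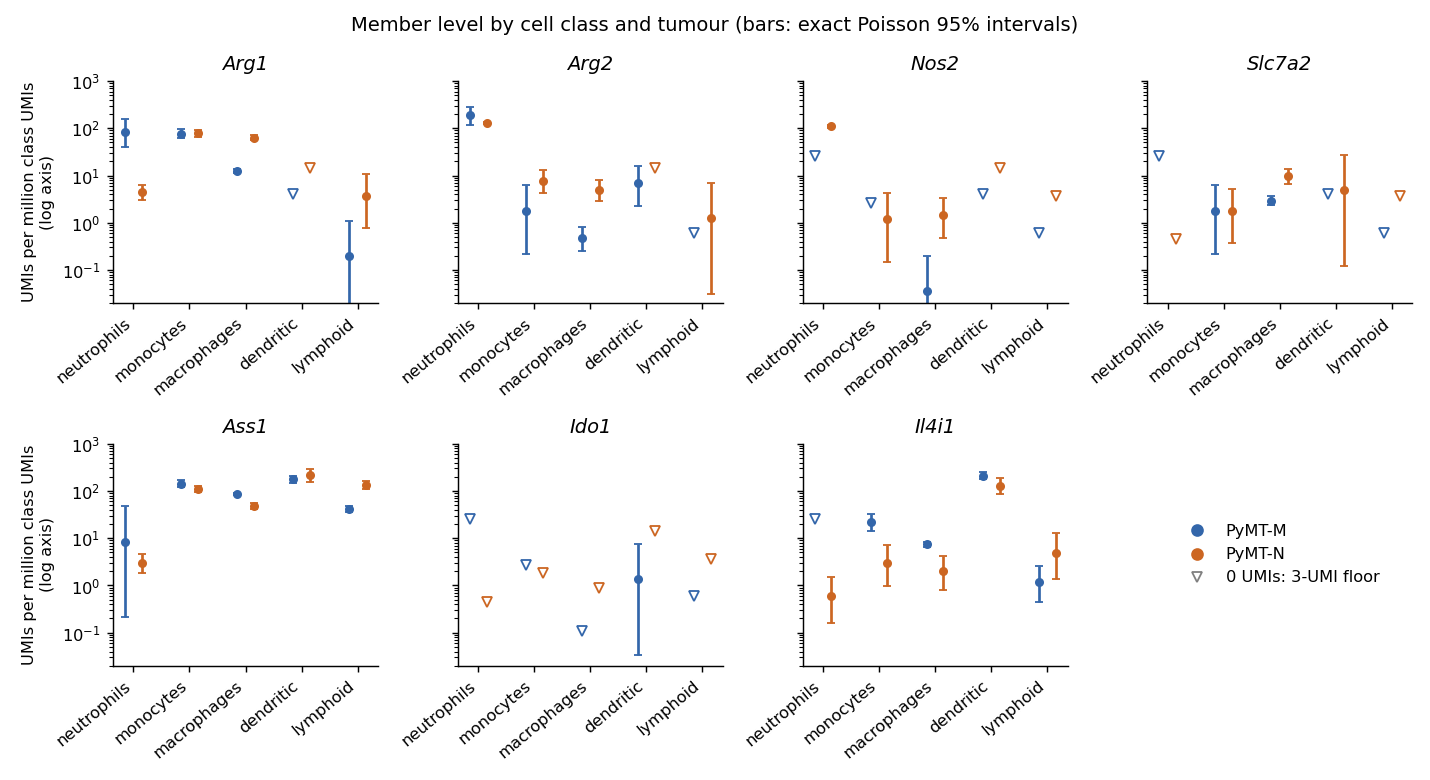
Level of each gene on a log axis (CPM) in neutrophils, monocytes, macrophages, dendritic cells and lymphoid cells of PyMT-M (blue) and PyMT-N (orange), 1 library each. Points carry exact Poisson 95% intervals, and open triangles mark the 3-UMI floor where no UMI was counted; Nos2 stands at 110.4 CPM in PyMT-N neutrophils and at 0 UMIs in those of PyMT-M.

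Of the 28 pairs of gene and class, 14 held the 20 UMIs over both libraries that a ratio required. A gene was called where its ratio, with 1 CPM added to both levels, reached 2-fold. In macrophages 3 of 5 measured genes (Arg1, Arg2 and Slc7a2) passed 2-fold towards PyMT-N, where 3.51% of all measured genes were, and 1 (Il4i1) was at least 2-fold higher in PyMT-M, where 7.66% were. The median log2 ratio of the 5 was 1.43, and that of all 11664 measured genes was -0.17. In neutrophils 1 of 4 (Nos2) was higher in PyMT-N against 7.5% of all genes, and 2 (Arg1 and Ass1) were higher in PyMT-M against 17.9%. The latter rested on 10 Arg1 UMIs in 3 PyMT-M cells and on 1 Ass1 UMI, and the interval for Ass1 includes no difference. In monocytes none of 3 was higher in PyMT-N against 2.75%, and 1 (Il4i1) was higher in PyMT-M against 4.78%. In dendritic cells none of 2 passed 2-fold in either direction, against 3.46% of genes higher in PyMT-N and 12.4% higher in PyMT-M.

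**Figure D2:**
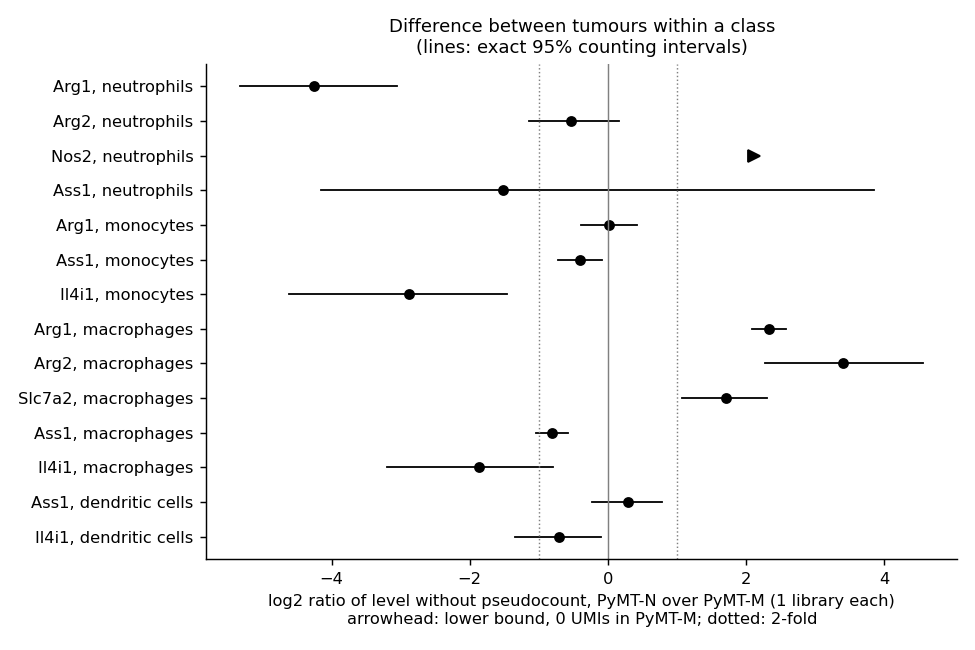
Log2 ratio of the level in PyMT-N over PyMT-M, without a pseudocount, for the 14 measured pairs of gene and class, with exact 95% counting intervals. The arrowhead is the lower bound for Nos2 in neutrophils (at least 4.32-fold), dotted lines mark 2-fold, and Arg1, Arg2 and Slc7a2 in macrophages lie to the right of them.

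Slc7a2, the arginine carrier, was a macrophage gene at low counts. Macrophages, 72.6% of the kept cells in PyMT-M and 13.4% in PyMT-N, held 82 of its 87 UMIs and 33 of 48. Neutrophils held 0 in either tumour, which in the 3300 PyMT-N cells allows at most 0.447 CPM. The macrophage level was 2.95 CPM (2.34 to 3.66) in PyMT-M against 9.60 CPM (6.61 to 13.5) in PyMT-N, 3.26-fold higher (2.11 to 4.94). With 10 CPM added in place of 1 the log2 ratio fell from 1.43 to 0.60, below the 2-fold call. At least 1 UMI was seen in 63 of 5021 PyMT-M cells (1.25%) and in 26 of 640 PyMT-N cells (4.06%). With every cell thinned to 1000 UMIs these shares were 0.188% (0.0858 to 0.356) and 1.49% (0.682 to 2.81). Lymphoid cells kept 0 of 896 and 0 of 204, with exact upper limits of 0.411% and 1.79%. Those limits overlap the macrophage intervals, so the thinned shares do not separate macrophages from lymphoid cells.

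Within macrophages Slc7a2 was higher in cells with matrix-cleaving genes, and in PyMT-N lower in cells with monocyte genes. Among the 116 PyMT-N macrophages with a UMI of Ctsk or Mmp12, which encode a collagen-cleaving cathepsin and a metalloproteinase, Slc7a2 stood at 20.3 CPM (11.3 to 33.4), and at 6.68 CPM (3.96 to 10.6) in the other 524. The 53 PyMT-M macrophages with such a UMI held 9 Slc7a2 UMIs, 5 of them in 1 cell, and stood at 21.6 CPM (9.87 to 41.0) against 2.66 (2.09 to 3.35) in the rest. Without that cell the level was 9.95 CPM. Both genes belong to the list that set the macrophage class. PyMT-N macrophages without a UMI of the monocyte list stood at 17.6 CPM (11.2 to 26.1) of Slc7a2 and those with one at 4.35 CPM (1.99 to 8.26), whereas in PyMT-M the values were 2.99 and 2.92 CPM. The median depth of PyMT-N cells was 3300 UMIs without and 6200 with monocyte UMIs.

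Arg1, the cytosolic arginase, was found in few cells, and some of these held many UMIs. In PyMT-M 108 of all kept cells held its 629 UMIs, and in PyMT-N 101 cells held 462. Macrophages accounted for 352 UMIs (56.0%) in PyMT-M against 219 (47.4%) in PyMT-N, and monocytes for 87 and 129. Macrophages were 72.6% of the kept cells in PyMT-M and 13.4% in PyMT-N. They held 27836874 of 39365395 UMIs of all genes in PyMT-M and 3435929 of 13943188 in PyMT-N. The PyMT-M share of Arg1 was thus below their share of all UMIs, and the PyMT-N share above it. Cells in no class held a further 141 and 73 UMIs. Dendritic cells held none, which allows at most 4.09 CPM in PyMT-M against 14.5 CPM in PyMT-N, and lymphoid cells held 1 and 3.

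The macrophage level of Arg1 was 12.6 CPM (11.4 to 14.0) in PyMT-M against 63.7 CPM (55.6 to 72.8) in PyMT-N, 5.04-fold higher (4.24 to 5.98). A UMI was seen in 60 of 5021 PyMT-M cells (1.19%) and 47 of 640 PyMT-N cells (7.34%). In PyMT-M 3 cells held more than 1 in 2 of the UMIs, the top one 81, while in PyMT-N 6 cells did and the top one held 25. Counting intervals treat UMIs as separate draws and are too narrow for counts gathered in so few cells. Weighting every cell equally gave a log2 ratio of 3.50 instead of 2.25, and leaving out the 3 top cells of each tumour, at 4.93 and 43.3 CPM, gave 2.90. Thinned to 1000 UMIs, 0.396% (0.239 to 0.618) and 4.13% (2.69 to 6.04) of macrophages kept a UMI, against 0 of 896 and 1 of 204 lymphoid cells. The exact upper limits of lymphoid cells, 0.411% and 2.70%, overlap the macrophage intervals, so these thinned shares do not separate macrophages from lymphoid cells.

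**Figure D3:**
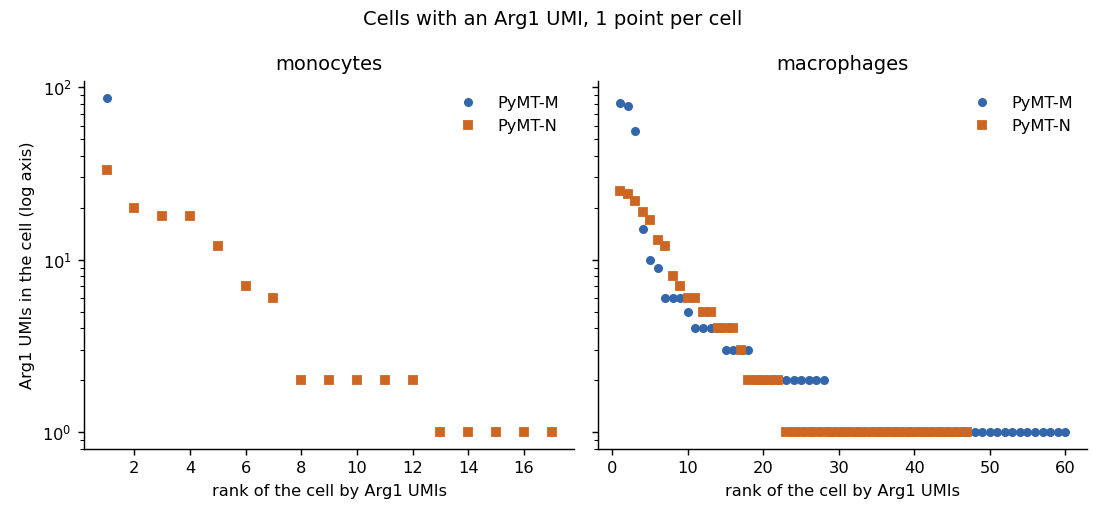
Arg1 UMIs in each monocyte (left) and macrophage (right) with at least 1, ranked within PyMT-M (blue circles) and PyMT-N (orange squares), on a log axis. The top macrophages of PyMT-M hold more UMIs than those of PyMT-N, up to 81 against 25, and the only PyMT-M monocyte holds 87.

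Macrophages with a UMI of Hilpda, a lipid droplet gene induced by low oxygen, carried most Arg1 UMIs, but in PyMT-M nearly all of these were in 3 cells. In PyMT-M they were 333 cells (6.63% of the class) and held 233 of the 352 UMIs, in 7 cells, at 88.6 CPM (77.6 to 100.7) against 4.72 CPM (3.91 to 5.65) in the others. In PyMT-N they were 149 cells (23.3%) and held 141 of 219 UMIs, in 21 cells, at 137.0 CPM (115.4 to 161.6) against 32.4 CPM (25.6 to 40.4). The 3 PyMT-M macrophages with the most Arg1 all held Hilpda and had 215 of those 233 UMIs. Without the 3 top cells of each tumour, the levels with Hilpda were 6.96 CPM (4.12 to 10.9999) in PyMT-M, overlapping that of the other cells, and 69.1 CPM (53.8 to 87.3) in PyMT-N, still above them. Most cells with Arg1 had no Hilpda UMI, 53 of 60 in PyMT-M and 26 of 47 in PyMT-N. Arg1 was seen in 2.10% of PyMT-M cells with Hilpda (0.849 to 4.28) and 1.13% without (0.848 to 1.48), and in 14.1% (8.94 to 20.7) and 5.30% (3.49 to 7.66) of those of PyMT-N. Between tumours the level was higher in PyMT-N by 6.86-fold (5.09 to 9.21) among cells without Hilpda. Among cells with it the ratio was 1.55-fold (1.25 to 1.92), and 9.92-fold (5.85 to 17.7) without the 3 top cells of each tumour. Cells with Hilpda were deeper, with medians of 6988 and 6318 UMIs against 4759 and 4244.

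In both tumours Arg1 was found more often in macrophages with a UMI of the monocyte list, although the PyMT-M level did not show it. In PyMT-M 46 of 2355 cells with such a UMI (1.95%, 1.43 to 2.60) and 14 of 2666 without (0.525%, 0.287 to 0.880) held Arg1, and in PyMT-N 35 of 315 (11.1%, 7.86 to 15.1) and 12 of 325 (3.69%, 1.92 to 6.36). Cells with a monocyte UMI were deeper, at medians of 6006 and 6200 UMIs against 3928 and 3300. The levels in PyMT-N were 93.8 CPM (81.1 to 108) with and 18.3 CPM (11.8 to 27.0) without a monocyte UMI, and in PyMT-M 12.3 CPM (10.6 to 14.1) and 13.1 CPM (11.1 to 15.4). Without the 3 top cells of each tumour the PyMT-M levels were 7.46 CPM (6.18 to 8.92) and 1.45 CPM (0.847 to 2.33), so their near equality rested on those cells. The ratio between tumours among cells without a monocyte UMI likewise went from 1.39-fold (0.874 to 2.13) to 12.6-fold (6.53 to 24.8), while among cells with one it was 7.63-fold (6.23 to 9.35) and 8.04-fold (6.20 to 10.4). The monocyte list stood at 8.86 per 10000 in PyMT-M macrophages with Arg1 against 3.88 in those without, and at 11.6 against 7.56 in PyMT-N. The 13 PyMT-N macrophages with 5 or more Arg1 UMIs carried the monocyte list at 16.3 and the macrophage list at 135 per 10000, against 7.56 and 238 in the 593 without Arg1. For Ctsk or Mmp12 the PyMT-N levels were 81.0 CPM (61.8 to 104) with and 59.0 CPM (50.2 to 68.9) without a UMI, and leaving out the top cell of each brought them to 48.9 and 49.8.

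In monocytes the equal class levels of Arg1, 76.8 CPM (61.5 to 94.8) in PyMT-M against 77.7 CPM (64.8 to 92.3) in PyMT-N, came from different numbers of cells. All 87 PyMT-M UMIs were in 1 of 193 monocytes. The 129 of PyMT-N were spread over 17 of 295 (5.76%), with at most 33 in a cell. Leaving out the top cell of each tumour brought PyMT-M to 0 UMIs and PyMT-N to 58.3 CPM, a log2 ratio of at least 4.46 against the limit of 3 UMIs.

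Arg1 in neutrophils rested on very few PyMT-M cells. The 54 PyMT-M neutrophils held 10 UMIs in 3 cells, 8 of them in 1, for 85.1 CPM (40.8 to 156), and the 3300 of PyMT-N held 30 UMIs in 12 cells, for 4.47 CPM (3.01 to 6.38). Without the top cell of each, PyMT-M fell to 2 UMIs (18.8 CPM), and the log2 ratio went from -3.98 to -2.21. It was -1.04 when cells needed at least 1000 UMIs and at most 5% mitochondrial UMIs. Only 0.364% of PyMT-N neutrophils showed an Arg1 UMI, beside 0.481% of lymphoid cells in the same library, which is 1 of 208 cells and too few to set a background. The 2 PyMT-N neutrophils with the most Arg1 held 8 and 6 UMIs.

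Arg1 and its carrier gene Slc7a2 met in the same PyMT-M macrophages more often than in other cells. Of the 60 cells with Arg1, 11 also held Slc7a2 (18.3%), and of the 4961 without, 52 did (1.05%). The cells with Arg1 were deeper, at a median of 8497 UMIs against 4867. After thinning to 1000 UMIs the shares were 2 of 23 cells (8.70%, 1.07 to 28.0) and 10 of 4774 (0.209%, 0.1005 to 0.385). In PyMT-N the shares were 3 of 47 (6.38%) and 23 of 593 (3.88%), with intervals that overlap.

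Arg2, the mitochondrial arginase, was a neutrophil gene in both tumours. In PyMT-N neutrophils held 872 of its 917 UMIs (95.1%), in 635 of 3300 cells (19.2%), with at most 7 in a cell. In PyMT-M the 54 neutrophils, 0.781% of the cells, held 22 of 56 UMIs (39.3%), in 14 cells (25.9%). The levels were 187 CPM (117 to 283) in PyMT-M against 129.9 CPM (121 to 139) in PyMT-N, and the 1.44-fold difference has an interval (0.899 to 2.20) that includes no difference. Thinned to 1000 UMIs the shares were 15.6% (6.49 to 29.5) and 10.7% (9.67 to 11.9). Lymphoid cells kept 0 of 896 and 1 of 204.

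Outside neutrophils the class level of Arg2 did not exceed 7.83 CPM in monocytes, macrophages or dendritic cells of either tumour. The 5 dendritic UMIs of PyMT-M were all in 3 mature cells, a subset at 39.4 CPM (12.8 to 91.9). Macrophages stood at 0.467 CPM (0.249 to 0.799) in PyMT-M against 4.95 CPM (2.88 to 7.92) in PyMT-N, a 10.6-fold difference (4.85 to 23.7) resting on 13 and 17 UMIs. The neutrophil list in those macrophages stood at 0.679 and 3.32 per 10000, and its part in that difference was not tested. With 10 CPM added in place of 1 the log2 ratio fell from 2.02 to 0.51.

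Among PyMT-N neutrophils Arg2 varied by less than 2-fold in splits at 1 UMI of other genes. Cells with a UMI of Siglecf, a receptor gene of tumour neutrophils, stood at 93.6 CPM (77.6 to 112) and those without at 138 CPM (129 to 149). Cells with Ngp or Camp, granule genes of immature neutrophils, stood at 161 CPM (131 to 196), and the rest at 127 CPM (118 to 136). By Hilpda the values were 148 CPM (135 to 162) with and 114 CPM (103 to 126) without a UMI. None of these splits at 1 UMI moved the level by 2-fold. The 164 cells with 2 or more Siglecf UMIs stood lower, at 69.1 CPM (45.9 to 99.9) against the 138 CPM of cells without Siglecf. The 157 cells with 2 or more UMIs of the interferon-induced genes Ifit1, Ifit3 or Rsad2 stood at 191 CPM (151 to 239), and cells without one at 127 CPM (118 to 136).

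Nos2, the inducible nitric oxide synthase, was found in neutrophils of PyMT-N and almost nowhere else. Those cells held 741 of the 757 UMIs in that library (97.9%), in 437 of 3300 cells (13.2%), at 110.4 CPM (102.6 to 119). The whole PyMT-M library held 1 UMI, in a macrophage. The 54 PyMT-M neutrophils held 0, which allows at most 25.5 CPM, so the level was at least 4.32-fold higher in PyMT-N against that limit of 3 UMIs, and the exact 95% interval of the ratio starts at 3.51-fold. Thinned to 1000 UMIs, 8.22% (7.28 to 9.25) of PyMT-N neutrophils kept a UMI, against 0 of 45 in PyMT-M and 0 of 204 lymphoid cells of PyMT-N. For the 45 cells 3 counts would be 6.67%, and the exact upper limit of 7.87% overlaps the PyMT-N interval, so the thinned shares do not separate the tumours. Macrophages, the class best known for this enzyme in inflammation, held 5 UMIs in 640 PyMT-N cells, or 1.46 CPM (0.473 to 3.40), and 3 of these were in 1 cell, without which the level was 0.585 CPM. Dendritic cells held none in either tumour.

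The Nos2 level of PyMT-N neutrophils climbed with their Hilpda UMIs. The 1451 cells with Hilpda, 44.0% of the class, held 614 of the 741 Nos2 UMIs (82.9%) and 46.8% of all UMIs, and stood at 195.5 CPM (180.3 to 212) against 35.5 CPM (29.6 to 42.3) in the 1849 without. By number of Hilpda UMIs the level was 88.2 CPM (65.7 to 116) with 1, 74.1 CPM (49.6 to 106) with 2, 124 CPM (93.1 to 163) with 3 or 4 and 276 CPM (252 to 302) with 5 or more. The intervals for 1, 2 and 3 or 4 UMIs overlap, and those for 0 and for 5 or more stand apart from all the others. Over the same steps Arg2 was 114, 105, 118, 148 and 169 CPM. Thinned to 1000 UMIs, Nos2 was seen in 16.1% (14.0 to 18.3) of 1181 cells that kept a Hilpda UMI and in 3.28% (2.53 to 4.18) of 1920 that did not, whereas the shares for Arg2 were 11.9% and 9.64%.

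**Figure D4:**
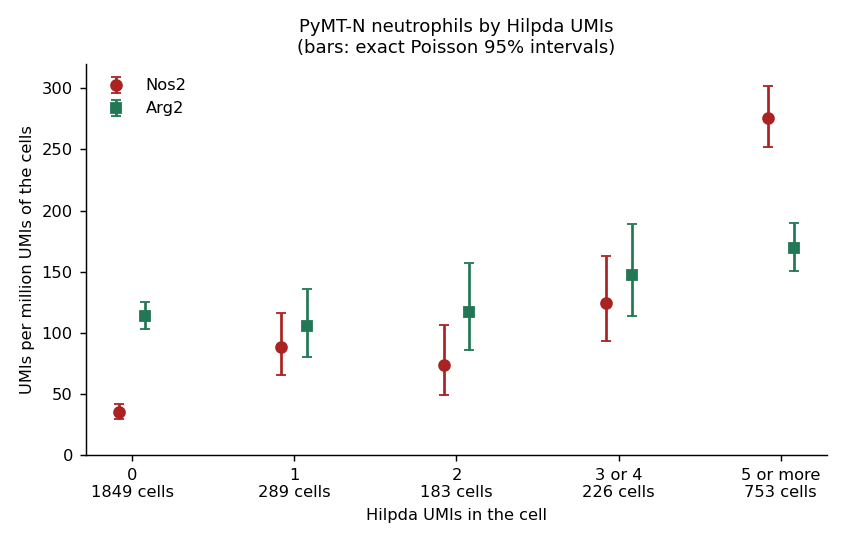
Levels of Nos2 (red circles) and Arg2 (green squares) in PyMT-N neutrophils grouped by the number of Hilpda UMIs in the cell, in CPM with exact Poisson 95% intervals. Nos2 is lowest without Hilpda (35.5 CPM) and highest with 5 or more UMIs (276 CPM), while Arg2 stays between 105 and 169 CPM.

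The comparison of Nos2 between tumours was also read by Hilpda, of which 7 of the 54 PyMT-M neutrophils held a UMI. In the other 47 no Nos2 UMI was seen, which allows 27.9 CPM, and the matching PyMT-N cells stood at 35.5 CPM. The exact upper limit of those 47 cells, 34.3 CPM, overlaps the PyMT-N interval, so no difference was detectable at this depth in neutrophils without Hilpda. In neutrophils with Hilpda the floor of PyMT-M, 305 CPM from 7 cells, lies above the PyMT-N level. The part of Hilpda in the difference between tumours was not tested.

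Other splits of PyMT-N neutrophils moved Nos2 less. Cells with Siglecf stood at 65.3 CPM (52.0 to 81.0) and those without at 121 CPM (112 to 130.5). With Hilpda present, cells with Siglecf stood at 138 CPM (107 to 174) and cells without at 206 CPM (189 to 224). With neither Hilpda nor Siglecf the level was 40.04 CPM (33.0 to 48.2), and with Siglecf alone 19.3 CPM (10.8 to 31.9). Cells with Ngp or Camp stood at 70.5 CPM (51.0 to 95.01) against 114 CPM (106 to 123) in the rest. The 286 cells with a UMI of the interferon-induced genes Ifit1, Ifit3 or Rsad2 stood at 148 CPM (122 to 178) and the other 3014 at 106 CPM (97.5 to 114), at median depths of 2151.5 and 1668 UMIs.

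Nos2 and Arg2, which draw on the same substrate, shared some PyMT-N neutrophils, with no clear excess at equal depth. Arg2 was seen in 122 of the 437 PyMT-N cells with Nos2 (27.9%, 23.8 to 32.4) and in 513 of the 2863 without (17.9%, 16.5 to 19.4). The cells with Nos2 were deeper, at 2040 UMIs against 1656. Thinned to 1000 UMIs the shares were 12.5% (8.74 to 17.3) and 10.0% (8.97 to 11.2), whose intervals overlap.

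Ass1, which recycles citrulline, was found in every class and was lowest in neutrophils. PyMT-M levels ran from 8.51 CPM (0.215 to 47.4) in neutrophils through 41.9 CPM (36.4 to 48.0) in lymphoid cells, 85.3 CPM (81.9 to 88.8) in macrophages and 143 CPM (122 to 167) in monocytes to 178 CPM (149 to 212) in dendritic cells. Those of monocytes and dendritic cells have intervals that overlap. The neutrophil level rests on 1 UMI, and its interval overlaps that of lymphoid cells. PyMT-N levels ran from 2.98 CPM (1.82 to 4.60) in neutrophils through 48.9 CPM (41.8 to 56.9) in macrophages, 108 CPM (93.1 to 125) in monocytes and 133 CPM (109 to 160.3) in lymphoid cells to 218 CPM (159 to 291) in dendritic cells. In PyMT-N the lymphoid interval overlaps those of monocytes and of dendritic cells. The gene is therefore no marker of myeloid cells here, and lymphoid cells give no background for it. T cells alone stood at 68.9 CPM in PyMT-M against 179 CPM in PyMT-N.

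In macrophages Ass1 was 1.74-fold higher in PyMT-M (1.49 to 2.05), seen in 1136 of 5021 cells (22.6%) against 71 of 640 (11.1%), and in 7.19% and 2.98% after thinning to 1000 UMIs. The ratio passed 2-fold with the stricter marker rule and with cells weighted equally. In monocytes it was 1.32-fold higher in PyMT-M (1.06 to 1.64). Among dendritic cells the 1.22-fold difference in favour of PyMT-N has an interval (0.849 to 1.72) that includes no difference. Neutrophils held 1 UMI in PyMT-M against 20 in PyMT-N, and the 2.86-fold ratio has an interval from 0.0689 to 17.9.

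Macrophages with a UMI of Ifit1, Ifit3 or Rsad2 had more Ass1 in both tumours. The levels were 110.6 CPM (104 to 117) with and 70.0 CPM (66.1 to 74.0) without such a UMI in PyMT-M, and 99.0 CPM (69.7 to 136.5) and 42.8 CPM (35.8 to 50.8) in PyMT-N. Such cells made up 30.8% of macrophages in PyMT-M against 8.59% in PyMT-N. Among them the tumours differed 1.12-fold (0.806 to 1.60), an interval that includes no difference, and among the others 1.64-fold (1.36 to 1.97). Monocyte marker UMIs went with more Ass1 as well, at 104 against 60.2 CPM in PyMT-M against 72.5 against 13.2 CPM in PyMT-N. Hilpda did not divide it, with 77.6 and 86.1 CPM in PyMT-M against 51.5 and 47.8 CPM in PyMT-N.

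**Figure D5:**
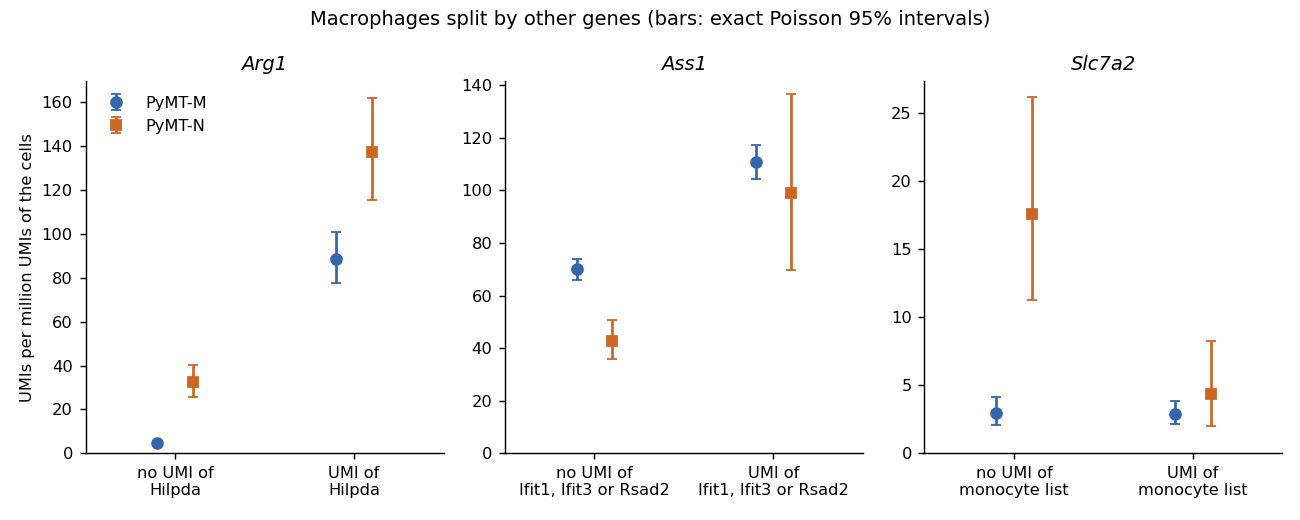
Macrophage levels (CPM, exact Poisson 95% intervals) of Arg1 by Hilpda, of Ass1 by interferon-induced genes and of Slc7a2 by the monocyte list, each as cells without and with a UMI of the split, in PyMT-M (blue circles) and PyMT-N (orange squares). Arg1 is higher with Hilpda (88.6 and 137.0 CPM, the first mostly from 3 cells), Ass1 is higher with interferon-induced genes (110.6 and 99.0 CPM), and Slc7a2 is highest in PyMT-N cells without monocyte UMIs (17.6 CPM).

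Ido1, the first enzyme of the kynurenine route, was close to absent. PyMT-M held 5 UMIs in 3 cells, 1 of them a dendritic cell of type 1 (by Xcr1 or Clec9a) with 1 UMI and the others in no class, and PyMT-N held 0 UMIs. At 3 UMIs as the limit of a count of 0, its level was at most 0.108 CPM in PyMT-M macrophages, 0.873 CPM in PyMT-N macrophages and 0.447 CPM in PyMT-N neutrophils. In the 34 dendritic cells of PyMT-N the limit was only 14.5 CPM.

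Il4i1, the secreted aromatic amino acid oxidase, was highest in dendritic cells, at 212 CPM (180.4 to 248.5) in PyMT-M against 130.5 CPM (86.0 to 189.9) in PyMT-N. Nearly all of it was in mature cells, defined by Ccr7 or Fscn1, a chemokine receptor gene and an actin-bundling gene. In PyMT-M 24 such cells held 153 of the 156 dendritic UMIs, every one of the 24 had at least 1, and the level was 1206 CPM (1022 to 1412). In PyMT-N 9 mature cells held all 27 UMIs, in 5 cells, with 14 in 1 of them, at 621 CPM (409 to 904). Dendritic cells of type 1 and of type 2 (by Cd209a, Mgl2 or Clec10a) held 1 and 2 UMIs in PyMT-M against 0 and 0 in PyMT-N. The same mature cells of PyMT-M also had the most Ass1 of the dendritic subsets, at 481 CPM (368 to 617) against 129 CPM in type 1 and 99.8 CPM in type 2, with 30 of the 61 UMIs in 1 cell.

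Over the whole dendritic class Il4i1 was 1.63-fold higher in PyMT-M (1.08 to 2.55), and the log2 ratio went from -0.70 to -1.34 without the top cell of each tumour, at 170.5 and 67.0 CPM. Monocytes stood at 22.1 CPM (14.3 to 32.6) and 3.01 CPM (0.977 to 7.02), 7.34-fold higher in PyMT-M (2.76 to 24.5), from 25 and 5 UMIs. Macrophages stood at 7.44 CPM (6.46 to 8.52) and 2.04 CPM (0.819 to 4.198), 3.65-fold higher in PyMT-M (1.74 to 9.19), from 207 and 7 UMIs, and the PyMT-N level was 1.17 CPM without its top cell. The dendritic list stood at 0.459 and 0.150 per 10000 in those monocytes and 0.404 and 0.0640 in those macrophages, and its part in the differences was not tested. Macrophages, 72.6% of the kept cells in PyMT-M, held 207 of its 433 Il4i1 UMIs, in 168 of 5021 cells. Among PyMT-M macrophages the level was 9.80 CPM (7.998 to 11.9) with and 6.003 CPM (4.90 to 7.27) without a UMI of Ifit1, Ifit3 or Rsad2.

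The genes around these enzymes were read from 6 lists, and the counts stand beside the shares over all genes given above, which in macrophages were 7.66% towards PyMT-M and 3.51% towards PyMT-N. In macrophages the tryptophan and kynurenine list had 12 of 18 genes measured. None was at least 2-fold higher in PyMT-N, 3 were in PyMT-M, and the median log2 ratio was -0.39. The 3 were Afmid, at 11.6 and 2.04 CPM in PyMT-M and PyMT-N, Kynu, at 14.0 and 3.20 CPM, and Haao, at 17.1 and 5.53 CPM, all enzymes of the kynurenine route below the step of Ido1. Kmo, another enzyme of that route, went the other way, at 4.56 and 9.02 CPM, short of the 2-fold call (log2 ratio 0.85). The regulator list had 14 of 14 measured, with none 2-fold higher in PyMT-N but 3 in PyMT-M, among them Irf1 (3.14-fold, 2.44 to 4.10) and Nfkb1 (2.04-fold, 1.74 to 2.40), transcription factors of interferon and inflammatory signalling.

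The arginine and polyamine list had 15 of 20 genes measured in macrophages, and 1 was at least 2-fold higher in PyMT-N, the arginine carrier gene Slc7a1, at 5.21 CPM in the PyMT-M tumour and 11.6 in the other (2.23-fold, 1.53 to 3.19). Odc1, whose enzyme takes up the ornithine that arginase makes, stood at 92.1 and 98.1 CPM, and Asl, which completes the rebuilding of arginine after Ass1, at 17.0 and 15.7 CPM. Of 6 measured genes of the amino acid shortage list 1 was higher in PyMT-N, the cystine carrier gene Slc7a11, at 3.41 and 17.5 CPM (5.12-fold, 3.64 to 7.14). Of 10 measured genes known with Arg1 from alternative activation 1 was higher in PyMT-N, Chil3, at 9.05 and 38.7 CPM (4.28-fold, 3.44 to 5.30), and Chil3 is also on the monocyte list. None of 7 genes of the nitric oxide cofactor list differed by 2-fold in macrophages.

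In neutrophils the cofactor list had 5 of 9 genes measured, with 1 higher in PyMT-N but 2 in PyMT-M. The 1 was Gch1, which opens the synthesis of the cofactor that Nos2 needs, at 17.0 CPM from 2 UMIs in PyMT-M against 63.9 CPM from 429 UMIs in PyMT-N (3.75-fold, 1.03 to 31.1). Those of PyMT-M were Spr, at 51.0 and 20.7 CPM (2.47-fold, 0.890 to 5.50), and Qdpr, at 42.5 and 17.1 CPM (2.48-fold, 0.792 to 5.97), with intervals that include no difference. The arginine and polyamine list had 13 genes measured and 3 higher in PyMT-M (Aldh18a1, Sms and Srm), each from 3 to 5 UMIs there, beside 17.9% of all neutrophil genes. Of 5 measured genes of the tryptophan list 1 was higher in PyMT-N, Tiparp, a target of the aryl hydrocarbon receptor (3.35-fold, 1.62 to 8.36). Of 8 measured genes of the amino acid shortage list 1 was, the stress factor gene Atf4 (2.90-fold, 1.40 to 7.23). Each rested on 7 UMIs in PyMT-M, and 7.5% of all neutrophil genes were higher in PyMT-N. Of 12 measured regulators 0 passed 2-fold in either direction.

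In monocytes, where 4.78% of all genes were higher in PyMT-M, 3 of 6 measured genes of the tryptophan list were, Slc7a5 (4.03-fold, 2.03 to 8.58), a tryptophan carrier gene, Kmo (2.93-fold, 1.70 to 5.22), a kynurenine enzyme, and Wars (2.57-fold, 1.44 to 4.69), the tryptophan-tRNA ligase. Of 7 measured genes of alternative activation 4 were higher in PyMT-M, with Retnla at 2923 and 991 CPM (2.95-fold, 2.78 to 3.13) and Fn1 at 1379 and 514 CPM (2.68-fold, 2.47 to 2.92). The others were Chil3 (2.45-fold, 2.14 to 2.81) and Mgl2 (2.10-fold, 1.39 to 3.19). Chil3 is on the monocyte list that set this class, so its ratio and the count of 4 draw on values the rule used. None of 14 measured genes of the arginine and polyamine list passed 2-fold there.

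Dendritic cells had too few UMIs in PyMT-N for most of these genes, and 12.4% of all measured genes were higher in PyMT-M there and 3.46% in PyMT-N. Of 6 measured tryptophan genes 3 (Haao, Kynu and Slc7a5) were higher in PyMT-M, from 1 to 3 UMIs in PyMT-N. Of 12 measured regulators 3 were higher in PyMT-M, among them Irf1 (2.93-fold, 1.53 to 6.29) and Cebpb (2.78-fold, 1.82 to 4.43). Of 7 measured genes of alternative activation 2 were higher in each tumour. Ccl17, a chemokine gene, was 3.18-fold (2.26 to 4.46) and the mannose receptor gene Mrc1 2.28-fold (1.19 to 4.27) higher in PyMT-N. Mrc1 is on the macrophage list, and a high level of that list kept cells out of the dendritic class. Retnla, at 89.9 and 4.83 CPM in PyMT-M and PyMT-N, rested on 1 UMI in the latter, and Fn1 stood at 163 and 67.7 CPM.

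Genes with profiles most like each member were sought over 11 class profiles of 50 or more cells, by the Pearson r of log2(CPM + 10) among 5161 genes, as a description over profiles that share 2 libraries. For Nos2 the closest were Prok2, 5430425K12Rik and Ngp, each with r of 0.999 and a level that was highest, like that of Nos2, in PyMT-N neutrophils, although among those cells Nos2 was lower in cells with Ngp or Camp. Nos2 stood at 110.4 CPM in that profile and at no more than 1.46 CPM in any other, so these r values rest on 1 profile. Arg2 was most like Siglecf, Hdc and Nlrp12 (each r = 0.98). Hdc is on the neutrophil list, and within PyMT-N neutrophils Arg2 was lower in cells with Siglecf. Il4i1 was most like Cd209a (r = 0.97), Siglech and Pianp (each r = 0.96), all highest in PyMT-M dendritic cells, although Cd209a marked the type 2 cells in which Il4i1 was nearly at 0. Cd209a and Siglech are on the dendritic list that set this class, so their likeness draws on values the rule used. For Arg1 the closest were Rbfa (r = 0.88), 1110008F13Rik (r = 0.85) and Tnfsf13 (r = 0.84), none of which shared its highest profile. For Ass1 they were Arl4c (r = 0.88), 9130401M01Rik (r = 0.86) and Ly6a (r = 0.84).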

How the data were processed

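Both libraries were made with the 10x Genomics 5′ chemistry from sorted cells, per the labels' protocols. The authors deposited raw UMI counts per gene and barcode, without normalisation. The matrices name software version 3.1.0, per the file headers, and Cell Ranger, Seurat and build mm10 were used, per the submitters' processing notes. Barcodes under 200 genes or above 10% mitochondrial UMIs were dropped, 119 in PyMT-M and 26 in PyMT-N. Scrublet (scanpy 1.11.5) marked 0 doublets with its automatic threshold, so the 440 and 201 highest scores were removed at 0.8% per 1000 barcodes, leaving 6917 and 4793 cells with 39365395 and 13943188 UMIs.

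A cell joined a class by UMIs of a marker list per 10000 UMIs (neutrophil 20, macrophage 50, dendritic 5, monocyte 10), with at least 3 such UMIs, a 2-fold margin between neutrophil and macrophage lists, and fewer than 10 of any lymphoid or non-immune list. A dendritic list of 10 or more kept a cell from the neutrophil and macrophage classes. Gzma was left out of the rule. These limits were set after marker UMIs had been seen. The rule left 542 and 299 cells unassigned, 7.84% and 6.24%. The 7 genes and all lists were chosen with earlier results of these data known, as were the splits by Hilpda, the monocyte list and Ifit1, Ifit3 or Rsad2 and the values without the 3 top cells. Named genes were the 7 members, up to 4 per related list and class past 2-fold by UMI total, genes next to a member's step, and the 3 profiles most like each member with 200 or more UMIs.

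CPM values have exact Poisson intervals, shares exact Clopper-Pearson intervals and ratios exact conditional binomial intervals, at 95%. UMIs of 1 cell are not independent, so intervals cover counting error only. A ratio needed 20 UMIs over both libraries. A gene at 0 was set at its bound against 3 UMIs. Thinning drew 1000 UMIs per cell without replacement, leaving out shallower cells. RNA of macrophages in neutrophils, from C1qa, C1qb and C1qc, came to 0.362% and 0.420%. The functions were tested on simulated counts. Python 3.11.15, numpy 2.4.6, scipy 1.17.1 and pandas 2.3.3 were used. Positions came from GENCODE annotation of GRCm38. The labels and headers do not name the authors' annotation release. The values of 1 gene of the related lists are not reported here.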

Additional observations from a re-analysis of the deposited data

How the results depend on the processing

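No paired analysis was possible because each tumour has 1 library and no result comes from a test. Of 116 log2 ratios recomputed under other settings 102 were counted as unmoved against their counting interval, and none changed the sign of a called value. These intervals carry no pseudocount. The main Arg2 ratio in macrophages, 2.02 with 1 CPM added, lay below its own interval (2.28 to 4.57). Median ratio scaling, a pseudocount of 0.1 CPM and subtraction of macrophage RNA were counted as moving none of the ratios. Median ratio scaling shifted all ratios of a class together, for Ass1 in macrophages from -0.79 to -0.60. Leaving out the cell with the most UMIs, an alternative chosen after seeing the data, moved Arg1 in neutrophils from -3.98 to -2.21, Arg1 in monocytes from 0.02 to a bound of 4.46, and Il4i1 in dendritic cells from -0.70 to -1.34. Cells with at least 1000 UMIs and at most 5% mitochondrial UMIs gave -1.04 for Arg1 in neutrophils. A pseudocount of 10 CPM gave -2.72 for Arg1 in neutrophils, and 1.70, 0.51 and 0.60 for Arg1, Arg2 and Slc7a2 in macrophages. The stricter marker rule gave a bound of 3.63 for Arg1 in monocytes, 1.94 for Arg1 in macrophages and -1.05 for Ass1 in macrophages, and the mean of per-cell CPM gave 1.67, 3.50 and -1.15. The cause of these moves was not tested.

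The 2 genes called higher in PyMT-M neutrophils became 1 without doublet removal, with the stricter rule, with a pseudocount of 10 CPM, with per-cell means and without the top cell. The 0 in PyMT-N monocytes became 1 with the stricter rule, per-cell means and without the top cell. In macrophages the 3 of PyMT-N became 1 with a pseudocount of 10 CPM, and the 1 of PyMT-M became 2 with the stricter rule and per-cell means and 0 with that pseudocount. The 0 of PyMT-M dendritic cells became 1 with per-cell means and without the top cell. Thinned shares moved most, 25 of 34, since they grow with the depth chosen. The 54 neutrophils of PyMT-M and 34 dendritic cells of PyMT-N set the widest limits.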

Other observations

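Epithelial cells that passed the CD45 sort were frequent enough in PyMT-M to be measured. These 95 cells, set by the epithelial list, stood at 38.9 CPM of Arg1, 8.20 CPM of Arg2, 43.0 CPM of Ass1 and 1.02 CPM of Il4i1, with no UMI of Nos2, Slc7a2 or Ido1. NK cells of PyMT-M, 260 in number, had little Ass1, at 1.18 CPM, whereas the 558 T cells of that library stood at 68.9 CPM.

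RefSeq promoters of build GRCm38.p6, short windows around a gene start, were at hand for 2 of the 7 genes, Ass1 and Il4i1. Letters were searched on both strands. The interferon response core, the GAS element TTCNNNGAA, the STAT6 element and the C/EBP element (TTGCNNNAA or TTGCNCAA) were in neither window, and 3.44%, 8.30%, 6.95% and 11.4% of all 32851 promoters hold them. The hypoxia element ACGTG was found once on each strand of Ass1, at overlapping positions 36 and 35 bases before the start, and not in Il4i1, and 19.6% of promoters hold it. The NF-kappaB consensus was found 6 times in Ass1 and 2 times in Il4i1, and 50.8% of promoters hold it. In both genes overlapping matches at neighbouring positions were each counted, so the separate sites are fewer. These matches describe letters and no binding.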
